A study of Mus musculus with 8 samples.

Results

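The collagen family comprises the genes of the triple-helical chains that build the extracellular matrix. Its members were taken as every gene of the deposited expression table whose symbol has the form Col, a type number, the letter a and a chain number, which gave 44 of 34745 genes. Collagen chains are made as procollagens, hydroxylated and glycosylated in the endoplasmic reticulum, wound into trimers, secreted, trimmed by proteinases and cross-linked by lysyl oxidases. In the heart, types I and III form the fibrils between muscle bundles, type V starts and sizes those fibrils, type IV is the sheet of every basement membrane, and type VI forms beaded filaments around cells. Fibroblasts are the main known source of the fibrillar chains, while endothelial and other cells add basement membrane chains.

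Hearts of mice labelled Balb/c were profiled by bulk messenger RNA sequencing in 8 libraries. Experimental autoimmune myocarditis (EAM) was raised with 100 µg per mouse of a peptide of MyHCα, the cardiac myosin heavy chain, in complete Freund's adjuvant, given under the skin on days 0 and 7. The groups were wild-type control hearts labelled day 0 (n = 2), wild-type hearts labelled day 21 of EAM (n = 3) and Trim21 knockout hearts labelled day 21 of EAM (n = 3). The labels do not say how the knockout allele was made, which cells lack it, the age of the mice or which part of the heart was taken. The protocol gives control mice adjuvant with buffer, but the labels place control hearts at day 0, so that day and immunization changed together and cannot be told apart. Earlier library names deposited beside the table give day 35 for both EAM groups. No knockout hearts without EAM were analysed here. The title of the series names TRIM21, a ubiquitin ligase, as a driver of myocarditis in cardiac fibroblasts, which are collagen-producing cells.

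Levels are given as FPKM, that is fragments per unit of exon length and of library size, so that levels of different genes are comparable per length. Depth inferred from the steps between low values was 14390000 to 16930000 fragments per library, and 10393 genes that reached 1 FPKM in 2 or more libraries entered the test. Trim21 was listed at 0.0481, 0 and 0.022 FPKM in the 3 knockout libraries, at 2.98, 3.29 and 3.37 in EAM wild type and at 1.98 and 2.18 in control. Summed levels of 9 cardiomyocyte markers were 14367 to 15430 FPKM in control, 11607 to 13457 in EAM wild type and 12314 to 13565 in EAM knockout. All 9 were lower by value in EAM wild type than control, none past the threshold, and the part of this in the collagen differences was not tested. Summed levels of 10 atrial markers stood apart in EAM wild type 2 and in EAM knockout 1 and 2, at 4065 to 5498 FPKM, against 230.8 to 841 FPKM in the other libraries, and results without these 3 libraries are given where they bear on a call. The other libraries were not alike. The atrial marker Myl7 was at 48.6 and 169 FPKM in EAM wild type 1 and 3. It was at 0.621 FPKM in EAM knockout 3 and at 1.20 and 1.04 FPKM in control. Averaged as log2(FPKM + 1), the 10 markers gave 3.79 and 4.56 in EAM wild type 1 and 3. They gave 2.38 in EAM knockout 3 and 2.63 and 2.60 in control. Leaving out the 3 libraries thus did not make atrial marker levels equal between groups. Not every marker followed Myl7. Nppa was at 317 FPKM in EAM wild type 1 and 297 in EAM knockout 3. Kcna5 was at 10.5 to 12.0 FPKM in all knockout libraries and 18.9 to 22.5 in EAM wild type. Its fall (adjusted p = 0.0244, limma) was lost under 7 of 19 alternative settings.

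Of the 44 collagen genes, 20 entered the test and 24 stayed below the filter. The 20 were 6 of 11 fibrillar chains, 4 of 6 basement membrane chains, 4 of 6 beaded filament chains, 1 of 3 short-chain network chains, 3 of 9 fibril-associated chains (FACIT, fibril-associated collagens with interrupted triple helices) and both multiplexins. No transmembrane chain and no anchoring fibril chain entered it. In all 3 comparisons together 4 collagen genes passed the threshold of an adjusted p of 0.05, namely Col3a1, Col5a1, Col5a3 and Col8a1.

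The DNA just before the starts of these 4 genes is shown because they are the collagen genes that passed the threshold. Between genotypes Col5a1 and Col5a3, chains of the same collagen, had opposite signs, and only Col5a1 passed. In EAM wild type against control both were positive. Each window is the 250 bases before the RefSeq gene start on GRCm38.p6, given 5′ to 3′ on the gene's own strand. Capitals mark a match, on either strand, to TATAAA (the TATA box), CCAAT (the CCAAT box), GGGCGG (the GC box bound by Sp1) or CAGAC (a core bound by SMAD proteins), and a match on the opposite strand appears as its reverse complement. No motif contains or overlaps another in these windows. Of the 44 genes, 35 had an entry in this RefSeq table.
Col3a1, chr1:45311288-45311537, plus strand: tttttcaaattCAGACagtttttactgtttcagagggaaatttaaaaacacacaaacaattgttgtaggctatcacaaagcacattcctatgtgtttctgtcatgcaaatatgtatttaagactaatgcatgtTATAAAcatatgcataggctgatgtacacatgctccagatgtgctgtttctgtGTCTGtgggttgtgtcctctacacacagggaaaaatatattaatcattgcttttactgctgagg
Col5a1, chr2:27886175-27886424, plus strand: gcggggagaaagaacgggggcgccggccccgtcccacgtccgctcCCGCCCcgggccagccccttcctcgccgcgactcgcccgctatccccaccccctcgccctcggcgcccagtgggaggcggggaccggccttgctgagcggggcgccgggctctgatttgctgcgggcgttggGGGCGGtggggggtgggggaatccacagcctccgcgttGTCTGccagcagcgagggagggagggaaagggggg
Col5a3, chr9:20815068-20815317, minus strand: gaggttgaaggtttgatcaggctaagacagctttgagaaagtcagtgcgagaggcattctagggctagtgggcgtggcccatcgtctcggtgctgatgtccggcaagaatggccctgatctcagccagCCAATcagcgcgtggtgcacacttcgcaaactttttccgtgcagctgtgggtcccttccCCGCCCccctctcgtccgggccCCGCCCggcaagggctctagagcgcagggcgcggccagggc
Col8a1, chr16:57754738-57754987, minus strand: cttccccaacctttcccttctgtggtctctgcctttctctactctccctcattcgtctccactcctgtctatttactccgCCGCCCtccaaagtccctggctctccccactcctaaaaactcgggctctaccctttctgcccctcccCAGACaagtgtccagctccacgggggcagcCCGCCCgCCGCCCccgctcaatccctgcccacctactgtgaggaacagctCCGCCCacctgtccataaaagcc

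The Col3a1 window held TATAAA at 117 bases before the start and CAGAC on both strands, and neither GGGCGG nor CCAAT. The Col5a1 window held GGGCGG on both strands and CAGAC on the opposite strand. The Col5a3 window held CCAAT at 122 bases before the start and GGGCGG at 63 and 41 bases before it, on the opposite strand. The Col8a1 window held GGGCGG at 4 positions on the opposite strand and CAGAC at 103 bases before the start. Among 32851 windows of the same length, 12.4% held TATAAA, 33.9% held CCAAT, 32.7% held GGGCGG and 42.2% held CAGAC. Among the 38 windows of collagen genes, 22 held GGGCGG (57.9%), 5 held TATAAA (13.2%), 13 held CCAAT (34.2%) and 17 held CAGAC (44.7%). These are matches of letters in a short window and were not tied to binding in these hearts.

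Basement membrane chains made up the largest part of the collagen transcripts in every library. Col4a1 and Col4a2, whose products form the common type IV network, were the highest collagen genes, at 87.6 to 144 and 66.6 to 97.6 FPKM. Col6a1, a type VI chain, Col1a1, the main chain of type I, and Col3a1, the type III chain, followed. These 5 genes supplied 71.6% to 78.9% of the summed collagen FPKM in each library. The sum over the 44 genes was 378 and 332 FPKM for the controls, 520.1, 558 and 467 FPKM for EAM wild type, while the knockout libraries had 384, 422 and 378 FPKM. On the deposited values all 3 EAM wild-type libraries thus had a higher sum than any library of the other groups, while the EAM knockout and control sums overlapped. Median-ratio size factors ran from 0.918 for EAM knockout 3 to 1.15 for EAM wild type 3. Divided by these factors, the sum of EAM wild type 3 falls below those of EAM knockout 2 and 3, so the separation depends on scaling.

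The makeup of that sum differed between groups. Fibrillar chains took 22.0% ± 1.15 (SD, n = 2) of it in control, 29.2% ± 3.73 (SD, n = 3) in EAM wild type and 21.5% ± 3.48 (SD, n = 3) in EAM knockout. EAM wild type 3 (24.9%) and EAM knockout 1 (25.2%) crossed, so the shares of those 2 groups overlapped. Basement membrane chains took 48.8% ± 1.23, 45.0% ± 3.53 and 54.5% ± 5.56 in the same order. Beaded filament chains stayed between 15.04% and 18.9% in every library, and the FACIT, short-chain network, transmembrane and remaining classes each took at most 2.02%, while the multiplexins took 5.15% to 6.48%.

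**Figure D1:**
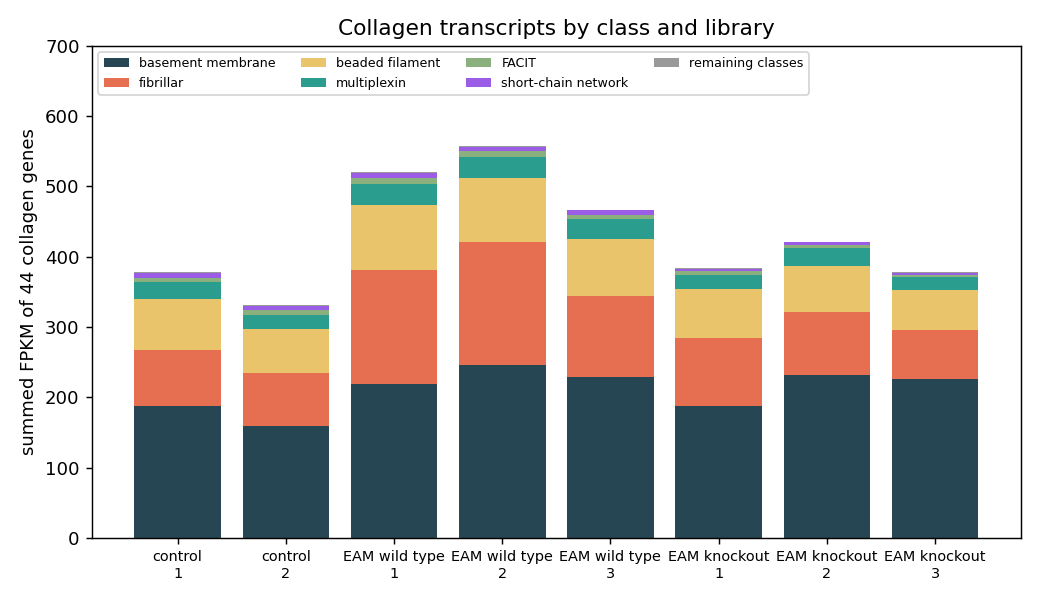
Stacked bars give the summed FPKM of the 44 collagen genes in each of the 8 libraries, split by collagen class. The 3 EAM wild-type bars reach 467 to 558 FPKM, above the control bars (332 and 378) and the EAM knockout bars (378 to 422), and the fibrillar part is widest in EAM wild type 1 and 2. Bars show deposited values, without scaling between libraries.

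In EAM wild type against control, the comparison of diseased with undiseased wild-type hearts, 2 collagen genes rose and none fell. This was 2 of 20 tested members, where 1.36% of all tested genes were called higher and 0.135% lower. At an unadjusted p under 0.05, 10 members were higher and 1 lower. The log2 difference was positive for 16 of 20 members, against 66.7% of all tested genes, and its median was 0.39 for the members and 0.084 for all tested genes. On the deposited values the groups did not overlap, with EAM wild type higher, for 12 of 20 members, against 24.6% of all tested genes. They did not overlap, with EAM wild type lower, for 1 member, against 6.68%. With median-ratio scaling the median was -0.0023 for all tested genes and 0.28 for the members. Then 1 member rose and 15 of 20 were positive. The calls over all tested genes were 74 higher and 19 lower, against 141 and 14 on the deposited values.

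Col3a1 (ENSMUSG00000026043, on chromosome 1 from 45311538 to 45349706, plus strand) was at 21.8 and 21.4 FPKM in control and at 57.1, 63.5 and 45.1 FPKM in EAM wild type. Every EAM wild-type library was above both controls, and the controls were nearly equal. On the log2(FPKM + 1) scale it rose by 1.3 (SE 0.19, adjusted p = 0.0122, limma), a 2.56-fold difference of mean FPKM. The call rested on having both controls, since without control 1 the adjusted p was 0.106 and without control 2 it was 0.0945, with log2 differences of 1.32 and 1.29. Without the 3 libraries high in atrial markers the difference was 1.20 (adjusted p = 0.0722).

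Col5a3 (ENSMUSG00000004098, chromosome 9, 20770050 to 20815067, minus strand), the least widespread of the type V chains, was at 3.91 and 2.87 FPKM in control and at 6.28, 6.47 and 5.79 FPKM in EAM wild type. The groups did not overlap, although the controls differed from each other more than the 3 EAM wild-type libraries did. It rose by 0.72 (SE 0.13, adjusted p = 0.0305, limma). This call was lost under 14 of 19 alternatives, among them leaving out any library except EAM wild type 3, which gave adjusted p-values of 0.0507 to 0.225, while the log2 difference stayed between 0.42 and 0.89.

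The other tested fibrillar chains, Col1a1, Col1a2, Col5a1 and Col5a2, had higher means in EAM wild type without passing the threshold. Col1a1 was at 26.8 and 27.3 FPKM in control and at 58.4, 65.3 and 35.5 FPKM in EAM wild type. Its lowest EAM library was still above both controls, and its log2 difference was 0.90 (adjusted p = 0.143, limma). Leaving out EAM wild type 3, the library with the lowest Col1a1 in its group, gave 1.16 (adjusted p = 0.0482). Col1a2, the partner chain of type I, was at 11.8 and 9.88 FPKM in control and at 16.8, 18.1 and 11.6 FPKM in EAM wild type, so that its groups overlapped (log2 difference 0.46, adjusted p = 0.37). Col5a1 (9.72 and 8.70 FPKM, then 15.1, 14.2 and 11.9 FPKM) and Col5a2 (4.19 and 3.91 FPKM, then 6.29, 6.68 and 5.43 FPKM), the chains of the common form of type V, did not overlap between the groups. Their log2 differences were 0.53 (adjusted p = 0.127) and 0.49 (adjusted p = 0.141).

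No basement membrane, beaded filament, FACIT, multiplexin or short-chain network gene passed the threshold in this comparison. Col4a1 was at 108 and 87.6 FPKM in control and at 126, 144 and 135 FPKM in EAM wild type, a log2 difference of 0.47 (adjusted p = 0.202, limma). Col4a2 was at 74.2 and 66.6 FPKM and then at 88.6, 97.6 and 90.3 FPKM. Both type IV chains were therefore above control in each EAM wild-type library. Col4a5 and Col4a4, chains of the type IV network best known from kidney, had negative differences of -0.16 and -0.42, and Col4a4 was lower in every EAM wild-type library (0.883 to 1.08 FPKM) than in control (1.55 and 1.75 FPKM; adjusted p = 0.122).

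Among beaded filament chains, Col6a1 was at 40.0 and 35.3 FPKM in control and at 52.8, 51.1 and 45.9 FPKM in EAM wild type, and Col6a2 at 24.2 and 22.4 FPKM and then at 32.6, 31.2 and 29.6 FPKM. Neither overlapped between the groups, and their log2 differences were both 0.40 (adjusted p = 0.224 and 0.168, limma). Col6a3 and Col6a6 overlapped between the groups, with differences of 0.20 and 0.31. Col15a1, a multiplexin of basement membrane zones, was at 21.9 and 18.2 FPKM in control and at 25.9, 25.2 and 25.2 FPKM in EAM wild type, a difference of 0.33 (adjusted p = 0.348). Col18a1, the multiplexin from which endostatin is cut, differed by 0.25. The FACIT chains Col14a1, Col16a1 and Col20a1 differed by 0.56, 0.03 and -0.08. Col8a1, a short-chain collagen of vessel walls and other sheets, overlapped between the groups, with a difference of -0.11 (adjusted p = 0.775).

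**Figure D2:**
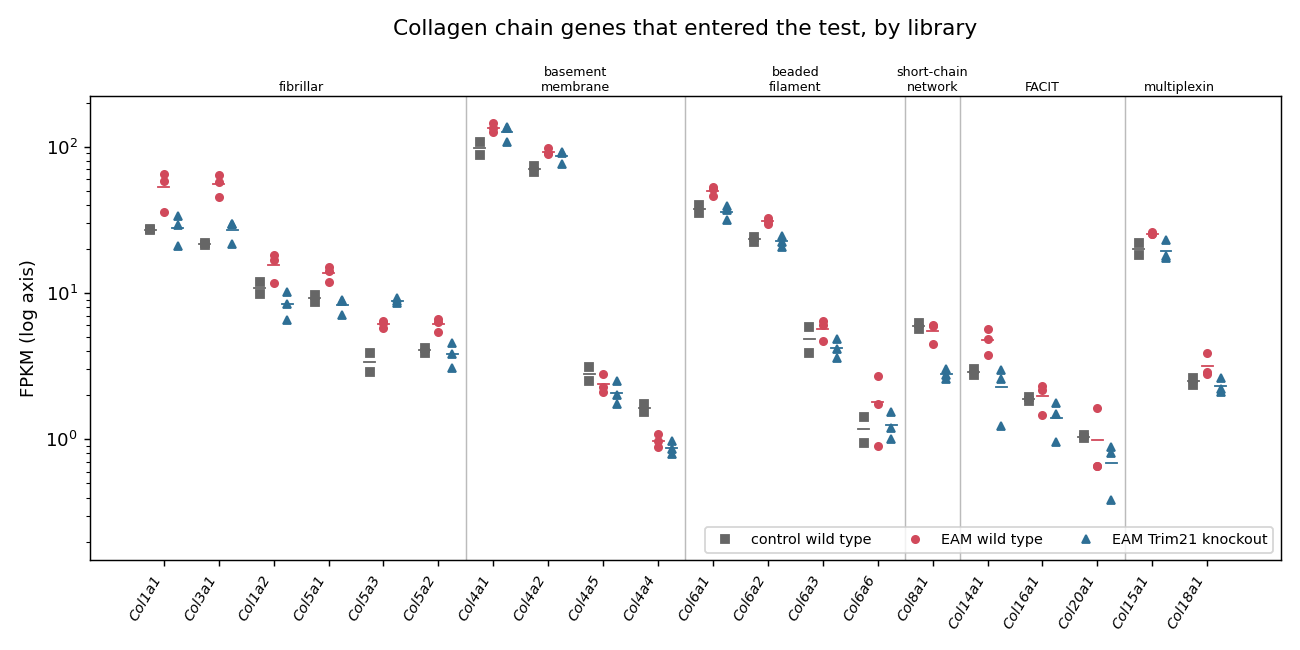
Each point is the FPKM of one library on a log axis for the 20 collagen genes that entered the test, grouped by class, with short bars at group means. Col3a1 lies at 45.1 to 63.5 in EAM wild type against 21.4 to 29.8 in the other libraries, Col5a3 is highest in EAM knockout (8.49 to 9.21) and Col8a1 is lowest there (2.57 to 3.02).

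In EAM knockout against EAM wild type, the comparison of genotypes within disease, 3 collagen genes fell and none rose. Of the 20 tested members 3 were thus called lower, where 2.80% of all tested genes were called lower and 0.289% higher. At an unadjusted p under 0.05, 11 members were lower and 1 higher. The log2 difference was negative for 19 of 20 members, against 72.8% of all tested genes, and its median was -0.37 for the members and -0.12 for all tested genes. On the deposited values the groups did not overlap, with the knockout lower, for 11 of 20 members, against 22.6% of all tested genes, and with the knockout higher for 1 member, against 2.58%. These counts of groups apart were not made on scaled values. Scaling the libraries by median ratios moved the median of all tested genes to 0.004 and that of the members to -0.23, and with that scaling 1 member fell, 1 rose and 17 of 20 were negative. The calls over all tested genes were then 46 higher and 85 lower, against 30 and 291 on the deposited values.

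Col3a1 was at 29.8, 29.5 and 21.7 FPKM in EAM knockout, below each EAM wild-type library (45.1 to 63.5 FPKM). It fell by 1.01 on the log2 scale (SE 0.17, adjusted p = 0.0173, limma), to 0.489 of the EAM wild-type mean. The adjusted p was 0.0508 without EAM knockout 2, 0.0662 without EAM wild type 1 and 0.0553 with median-ratio scaling, with log2 differences of -1.08, -0.98 and -0.85. Among the libraries high in atrial markers Col3a1 was at 29.8 and 29.5 FPKM in knockout and 63.5 FPKM in wild type, and among the remaining EAM libraries at 21.7 FPKM in knockout and 57.1 and 45.1 FPKM in wild type. These sets hold 1 or 2 libraries per genotype, and without the first set the difference was -1.19 (adjusted p = 0.154). The part of atrial content in the difference was not tested.

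Col5a1 (ENSMUSG00000026837, chromosome 2, 27886425 to 28039514, plus strand) was at 8.89, 8.82 and 7.06 FPKM in EAM knockout, against 15.1, 14.2 and 11.9 FPKM in EAM wild type. It fell by 0.67 (SE 0.13, adjusted p = 0.0302, limma). This was the least stable of the 3 calls, lost under 12 of 19 alternatives. Leaving out any 1 library except EAM wild type 3 gave adjusted p-values of 0.0515 to 0.0969. With median-ratio scaling the difference was -0.53 (adjusted p = 0.114).

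Col8a1 (ENSMUSG00000068196, chromosome 16, 57624258 to 57754737, minus strand) was at 2.76, 3.02 and 2.57 FPKM in EAM knockout and at 6.0, 4.50 and 5.94 FPKM in EAM wild type. It fell by 0.77 (SE 0.12, adjusted p = 0.0147, limma), to 0.508 of the EAM wild-type mean. The 3 knockout libraries lay close together and below all 5 others, which ranged from 4.50 to 6.21 FPKM. The call held under 17 of 19 alternatives and was lost without EAM wild type 1 (adjusted p = 0.0534, log2 difference -0.71) and without the 3 libraries high in atrial markers (adjusted p = 0.148, log2 difference -0.96).

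Col5a3 went the other way, as the one tested collagen gene with a positive difference. It was at 8.74, 9.21 and 8.49 FPKM in EAM knockout against 6.28, 6.47 and 5.79 FPKM in EAM wild type. The groups did not overlap, and the difference of 0.45 (SE 0.11, adjusted p = 0.0673, limma) missed the threshold. It passed with median-ratio scaling (0.59, adjusted p = 0.0487), quantile normalization (0.59, adjusted p = 0.047) and a pseudocount of 5 (0.31, adjusted p = 0.0496). Since type V collagen is known as trimers of the Col5a1 and Col5a2 products, with the Col5a3 product in a less common form, the levels of these chains were set beside each other.

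The Col5a3 to Col5a1 ratio of FPKM was 0.402 and 0.33 for the controls and 0.415, 0.455 and 0.487 for EAM wild type, but 0.984, 1.04 and 1.20 for the knockout. The ratio was thus at least 0.984 in every knockout library and at most 0.487 in every other. In the same libraries the Col5a2 to Col5a1 ratio stayed at 0.416 to 0.51. An exact two-sided permutation test of knockout against EAM wild type gave p = 0.1 for the Col5a3 to Col5a1 ratio. Col5a3 was higher and Col5a1 lower in every knockout library than in any EAM wild-type library. Separation of their ratio, and with it this p, was thus fixed by the values already given. It is the smallest p that 3 libraries against 3 allow, so no ratio could pass the threshold and the test decides nothing. Of 11 chain ratios so tested 4 reached that smallest p (0.275 after adjustment over the 11), the others being Col3a1 to Col5a2, Col3a1 to Col4a1 and Col8a1 to Col4a1.

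The remaining tested fibrillar chains, Col1a1, Col1a2 and Col5a2, were lower on the deposited values in each EAM knockout library than in any EAM wild-type library and missed the threshold. Divided by the median-ratio size factors, Col1a1 and Col1a2 in EAM wild type 3 fall below EAM knockout 1, so that their groups overlap. Col1a1 was at 33.5, 28.9 and 21.0 FPKM in knockout, where the nearest EAM wild-type library was at 35.5 FPKM, and its log2 difference was -0.89 (adjusted p = 0.0779, limma). Without EAM wild type 3 that difference was -1.15 (adjusted p = 0.0321). Col1a2 was at 10.1, 8.46 and 6.56 FPKM in knockout, a difference of -0.81 (adjusted p = 0.0584), which also passed without EAM wild type 3 (-0.99, adjusted p = 0.0386). Col5a2 was at 4.53, 3.83 and 3.08 FPKM in knockout, a difference of -0.57 (adjusted p = 0.051), and passed without EAM knockout 1 (-0.68, adjusted p = 0.0414).

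Type IV chains showed no such separation. Col4a1 was at 108, 136 and 133 FPKM in EAM knockout, within or below the EAM wild-type range of 126 to 144 FPKM, and its difference was -0.10 (95% interval -0.42 to 0.21, adjusted p = 0.715, limma). Col4a2 was at 76.3, 91.2 and 90.3 FPKM in knockout, a difference of -0.10 (95% interval -0.38 to 0.17, adjusted p = 0.671). The signs of both turned with median-ratio scaling, to 0.05 each. Col4a4 and Col4a5 differed by -0.08 and -0.14, and their groups overlapped. Intervals here are limma's for single genes, not adjusted for the number of genes.

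Col6a1 and Col6a2, which share a chromosome and a filament, were lower on the deposited values in each EAM knockout library than in any EAM wild-type library and did not pass. Divided by the size factors, Col6a1 in EAM wild type 3 comes level with EAM knockout 1. Col6a1 was at 39.2, 36.8 and 31.7 FPKM in knockout, a difference of -0.47 (adjusted p = 0.0792, limma), and Col6a2 was at 24.6, 22.5 and 20.6 FPKM, a difference of -0.45 (adjusted p = 0.0655). Col6a3, the large chain of type VI, and Col6a6 overlapped between genotypes, with differences of -0.36 and -0.27. Col15a1 was at 17.9, 22.9 and 17.4 FPKM in knockout (difference -0.38, adjusted p = 0.156), and Col18a1 differed by -0.34. Among FACIT chains, Col14a1, which sits on the surface of type I fibrils, was at 2.27 ± 0.912 FPKM in knockout and 4.77 ± 0.983 FPKM in EAM wild type (SD, n = 3 each), a difference of -0.85 (adjusted p = 0.0655). Col16a1 and Col20a1 differed by -0.31 and -0.21 with overlapping groups.

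**Figure D3:**
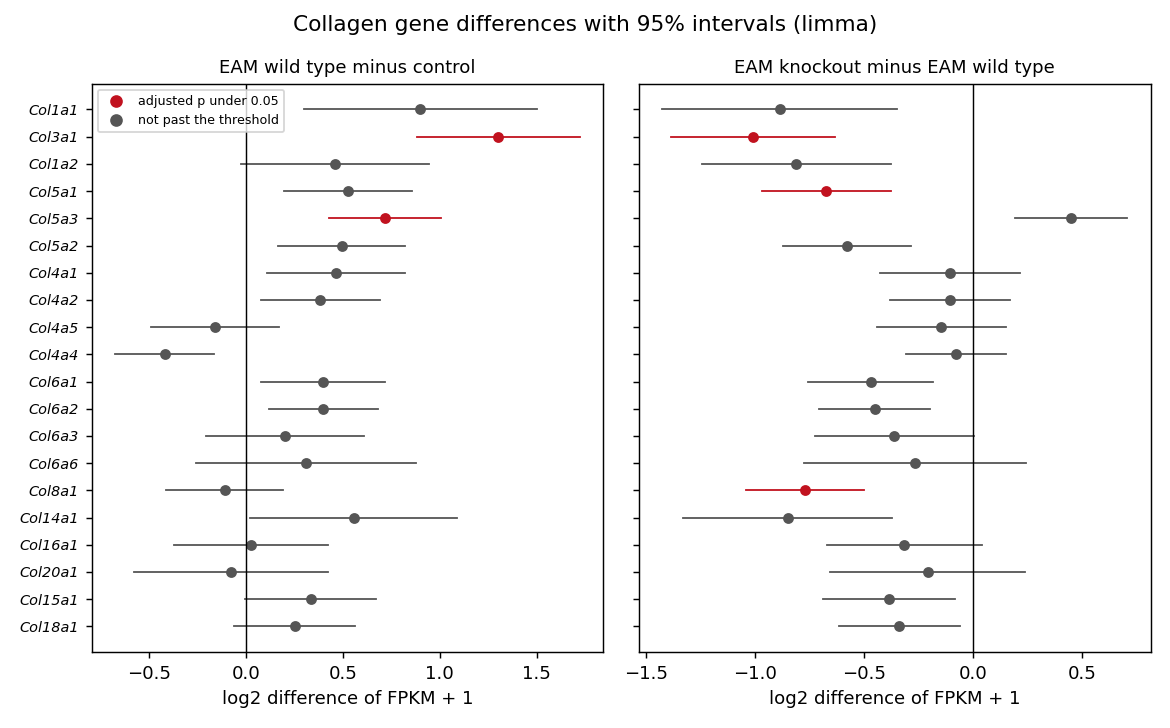
Points are log2 differences of FPKM + 1 for the 20 tested collagen genes, with limma 95% intervals, for EAM wild type minus control (left) and EAM knockout minus EAM wild type (right), and red marks an adjusted p under 0.05. On the right 19 points lie below 0 and Col5a3 lies above it at 0.45, while the type IV chains lie nearest to 0.

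The 2 comparisons share the EAM wild-type libraries, so their opposite signs are not independent of each other. EAM knockout was also set against control in the same fit. Each difference there is the sum of the other 2, so this is no independent check. Genotype, immunization and day change together in this comparison. Here 1 member was higher and 1 lower, where 0.568% of all tested genes were called higher and 0.799% lower. The median of the members was -0.08, and 6 of 20 were positive and 14 negative, against 44.7% and 55.3% of all tested genes. Single libraries moved this, to 10 positive and 10 negative without EAM knockout 3 or without control 1 (medians -0.014 and -0.013) and to 4 positive and 16 negative without EAM knockout 2 (median -0.16). Col5a3 was higher in EAM knockout than in control by 1.17 (SE 0.13, adjusted p = 0.00285, limma), a 2.60-fold difference of mean FPKM, and kept its call when any 1 library was left out. Without the 3 libraries high in atrial markers its difference was 1.12 (adjusted p = 0.176). Col8a1 was lower by 0.88 on the log2 scale (SE 0.13, adjusted p = 0.0161), a call that was lost without control 1 (adjusted p = 0.149) or control 2 (adjusted p = 0.102).

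Of the abundant chains Col3a1, Col1a1 and Col4a1 none passed the threshold here. Col3a1 differed by 0.30 (95% interval -0.12 to 0.72, adjusted p = 0.519, limma), with knockout libraries at 29.8, 29.5 and 21.7 FPKM against 21.8 and 21.4 FPKM in control. Col1a1 differed by 0.01 (95% interval -0.59 to 0.61, adjusted p = 0.988). Col4a1 differed by 0.36 (95% interval 0.00 to 0.72, adjusted p = 0.357), with knockout 1 equal to the higher control at 108 FPKM and the other knockout libraries above both. These intervals leave room for sizeable differences either way for type I.

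Some chain pairs kept near-constant proportions across the 8 libraries and others did not. The Col4a1 to Col4a2 ratio was 1.32 to 1.49, with a coefficient of variation of 4.10%, where Col4a1 alone varied by 15.7%. Per the deposited coordinates these genes lie head to head on chromosome 8 and overlap by 22 bases. The Col6a1 to Col6a2 ratio was 1.54 to 1.65 (2.68%, where Col6a1 alone varied by 18.3%), and these genes lie 85.2 kb apart on the same strand of chromosome 10. Other pairs within a type varied more, with coefficients of variation of 12.0% for Col6a3 to Col6a1 (0.102 to 0.145) and 16.5% for Col4a4 to Col4a3 (2.24 to 3.54). The type I pair varied by 14.0%, with Col1a1 to Col1a2 at 2.27 and 2.76 in control and 3.05 to 3.61 in the 6 EAM libraries. Col3a1 and Col5a2 are neighbours on chromosome 1, tail to tail and 24.6 kb apart, and their ratio was 5.20 and 5.47 for the controls, 8.31 to 9.51 for EAM wild type, with the knockout between at 6.56 to 7.71. Both members of a ratio come from the same library and share its depth.

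**Figure D4:**
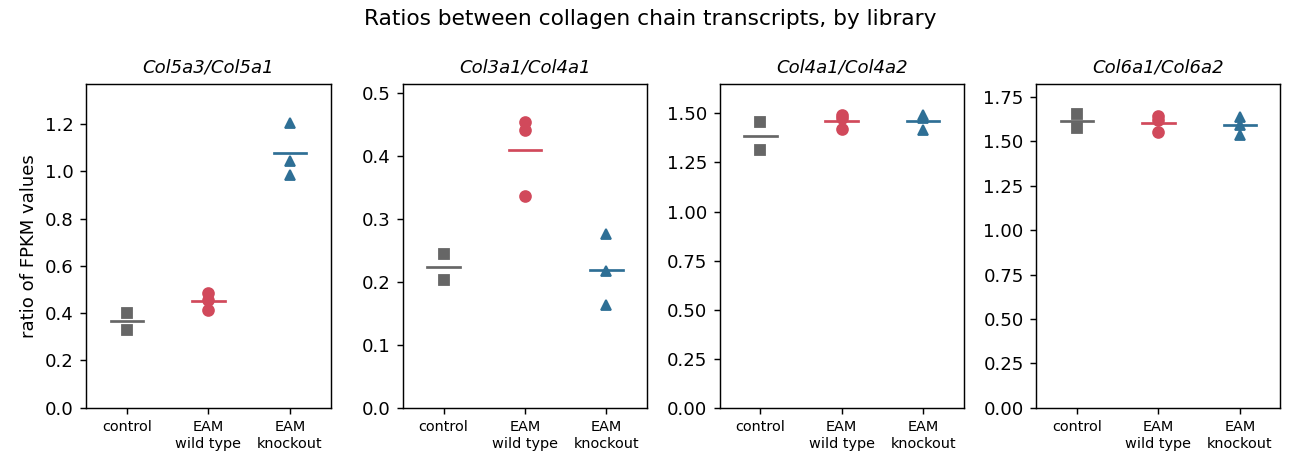
Each panel plots a ratio of FPKM values in every library, with a bar at the group mean and the axis starting at 0. Col5a3 to Col5a1 is 0.984 to 1.20 in EAM knockout and 0.33 to 0.487 elsewhere, Col3a1 to Col4a1 is highest in EAM wild type (0.335 to 0.453), while Col4a1 to Col4a2 (1.32 to 1.49) and Col6a1 to Col6a2 (1.54 to 1.65) are nearly flat.

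EAM knockout 3 was the lowest of its group for 18 of the 20 tested members, and EAM wild type 3 was the lowest of its group for 13. The median coefficient of variation of the 20 genes within a group was 7.85% in control, 15.4% in EAM wild type and 15.2% in EAM knockout. Inferred fragments of the 4 called genes ranged from 287 for Col5a3 in its lowest library to 9562 for Col3a1 in its highest.

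The 24 collagen genes below the filter had little signal in any group and were not tested. The fibrillar chains Col27a1 (0.329 to 1.08 FPKM) and Col11a2 (0.334 to 0.87 FPKM) came closest, and Col27a1 reached 1 FPKM in 1 library. Col2a1, Col11a1 and Col24a1, also fibrillar, were at or below 0.182 FPKM, and Col2a1, the cartilage collagen, was listed above 0 in 2 libraries only. Of the basement membrane chains Col4a3 was at 0.275 to 0.672 FPKM and Col4a6 at up to 0.0165 FPKM. Col4a3 was highest in the 2 controls, as was its head-to-head neighbour Col4a4.

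Of the beaded filament chains below the filter, Col6a5 was at 0.0116 to 0.409 FPKM and Col6a4 was listed above 0 in 1 library. Col7a1, the anchoring fibril chain known from skin, was at 0.0175 to 0.109 FPKM. The short-chain genes Col8a2 and Col10a1, the latter a marker of hypertrophic cartilage, were at 0.178 to 0.535 FPKM and at up to 0.064 FPKM. The FACIT genes Col9a1, Col9a2, Col9a3, Col12a1, Col19a1 and Col22a1 stayed at or below 0.503 FPKM, which was Col9a2 in control 2. The transmembrane genes Col13a1, Col17a1, Col23a1 and Col25a1 stayed at or below 0.699 FPKM, and Col26a1 and Col28a1 at or below 0.853 FPKM. Of the 24 genes, 15 were above 0 in all 8 libraries and 5 were listed at 0 in at least 5. At this depth 3 fragments of Col10a1 correspond to 0.0566 to 0.0666 FPKM, and lower values were not distinguishable from 0.

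Enzymes and chaperones that make collagen were examined as 33 genes of prolyl and lysyl hydroxylation, folding, export, trimming and cross-linking, of which 27 were tested. In EAM wild type against control none passed, 21 of 27 were positive, where 66.7% of all tested genes were, and the median was 0.19. The largest differences by size were those of Loxl1 (0.66, adjusted p = 0.0708, limma), Adamts2 (0.64, adjusted p = 0.126) and Loxl2 (0.63, adjusted p = 0.0678), namely a lysyl oxidase of elastic and collagen fibres, the main procollagen N-proteinase and a lysyl oxidase of type IV and other collagens. In EAM knockout against EAM wild type 2 fell, where 2.80% of all tested genes did, and 23 of 27 were negative, where 72.8% of all tested genes were. The median was -0.22, against -0.12 for all tested genes. Loxl2 was at 7.51, 6.06 and 7.68 FPKM in EAM wild type and at 4.24, 3.22 and 4.02 FPKM in EAM knockout. It fell by 0.74 (SE 0.12, adjusted p = 0.0177, limma), a call lost under 6 of 19 alternatives. Pcolce2, an enhancer of procollagen C-proteinase, was at 4.51, 5.22 and 4.29 FPKM and then at 3.36, 2.56 and 2.56 FPKM, and fell by 0.57 (adjusted p = 0.0344), a call lost under 13 of 19 alternatives. Both genes were lower in every knockout library than in any EAM wild-type library. Serpinh1, the collagen chaperone HSP47, was at 70.1 to 101 FPKM in all libraries, a genotype difference of 0.03.

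**Figure D5:**
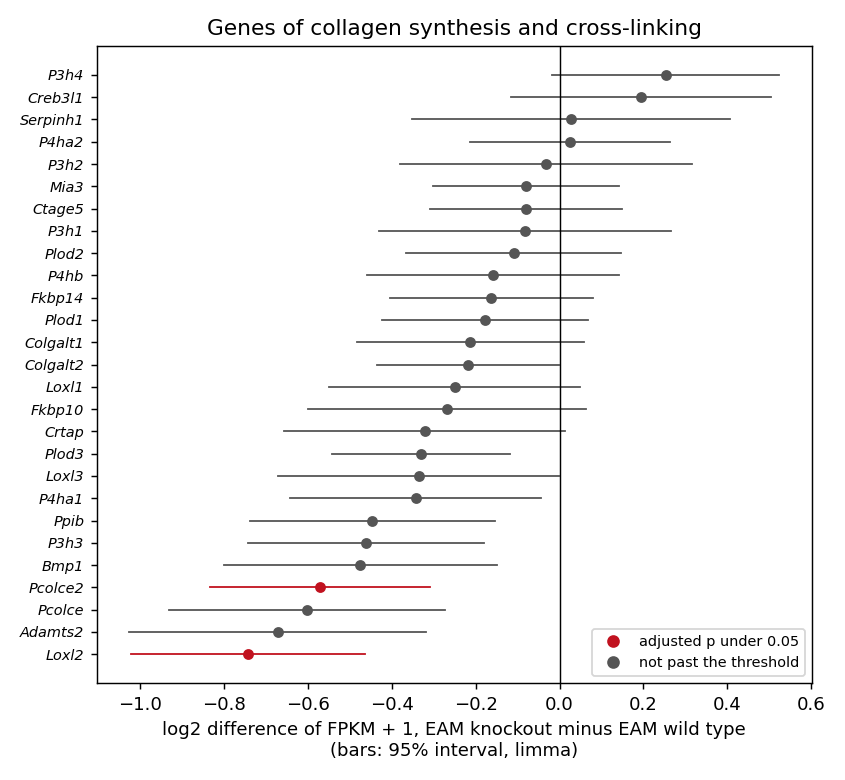
Points are log2 differences of FPKM + 1, EAM knockout minus EAM wild type, for the 27 tested genes of collagen synthesis and cross-linking, with limma 95% intervals and red for an adjusted p under 0.05. Loxl2 (-0.74) and Pcolce2 (-0.57) are red, and 23 of 27 points lie below 0.

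Against control, P4ha1, a catalytic prolyl hydroxylase subunit named after its values were seen, was lower in EAM knockout, at 7.44 ± 0.71 FPKM (SD, n = 3) against 13.5 ± 2.74 FPKM (SD, n = 2; log2 difference -0.77, adjusted p = 0.0443, limma), a call lost under 13 of 19 alternatives. Of 12 collagen receptors 6 were tested and none passed in any comparison. Between genotypes their largest differences were those of the endocytic collagen receptor Mrc2 (-0.48, adjusted p = 0.0689), Adgrg1, an adhesion receptor that binds type III collagen (-0.38, adjusted p = 0.154), and Itgb1, the beta subunit of collagen-binding integrins (-0.37, adjusted p = 0.508).

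Of 22 regulators of TGF-beta signalling and fibrosis 16 were tested. In EAM wild type against control Il1b, an inflammatory cytokine, rose from 0.162 ± 0.016 (SD, n = 2) to 2.02 ± 0.598 FPKM (SD, n = 3), a log2 difference of 1.36 (adjusted p = 0.00616, limma). In that comparison 13 of 16 were positive, where 66.7% of all tested genes were. Between genotypes 15 of 16 were lower in the knockout by value, against 72.8% of all tested genes, with a median of -0.44. Il1b fell by 0.70 (adjusted p = 0.0419), a call lost under 14 of 19 alternatives. Tgfb1 itself was at 9.38 ± 0.18 FPKM in knockout and 12.2 ± 1.69 FPKM in EAM wild type (SD, n = 3 each), with an adjusted p of 0.153.

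Markers of other cell types moved beside the collagens. In bulk hearts fewer cells of a type and less RNA per cell cannot be told apart. Of 10 fibroblast markers, all tested, 2 fell between genotypes, where 2.80% of all tested genes did. All 10 were lower in the knockout by value, against 72.8% of all tested genes. Their median was -0.55, against -0.74 for the 6 fibrillar chains. The 2 that fell were Lum, by 0.96 (adjusted p = 0.0177, limma), and Dcn, by 0.71 (adjusted p = 0.0268), both collagen-binding proteoglycans named after their values were seen. These calls were lost under 4 and 11 of 19 alternatives. Summed fibroblast marker FPKM was 1093 to 1126 in control, 1178 to 1488 in EAM wild type and 708 to 1168 in EAM knockout. Of 8 myofibroblast markers 7 were tested and 1 fell, where 2.80% of all tested genes did. This was Postn, a matrix protein of activated fibroblasts, which fell by 0.98 (adjusted p = 0.00874, limma). Summed levels of the 8, largely of Acta2, were 406 to 451, 380 to 521 and 310 to 382 FPKM in the same order. The part of these marker levels in the collagen differences was not tested. Per unit of Dcn, Col3a1 was 0.0625 and 0.0661 in control, 0.114 to 0.148 in EAM wild type and 0.0997 to 0.118 in EAM knockout, so that knockout and wild type then overlapped. Per unit of Pdgfra, a receptor that marks fibroblasts, it was 5.45 and 6.68, 12.3 to 13.8 and 7.84 to 8.66, with no overlap between groups. Per unit of Tcf21, another of the fibroblast markers, it was 2.69 and 2.55, 3.78 to 4.82 and 2.84 to 4.28, so that knockout and EAM wild type overlapped.

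Of 9 tested macrophage markers among 11, 6 fell between genotypes and 2 rose in EAM wild type against control, where 2.80% of all tested genes fell and 1.36% rose, with summed levels of 253 to 295 FPKM in control, 426 to 512 in EAM wild type and 232 to 292 in EAM knockout. Their part in the collagen differences was not tested. Of 9 endothelial markers none passed between genotypes, and the median was -0.03. Summed levels were 199.9 to 213 FPKM in control, 268 to 288 in EAM wild type and 272 to 277 in EAM knockout. Against control 1 of 9 rose in EAM knockout, where 0.568% of all tested genes did. This was Kdr, named after its values were seen (log2 difference 1.01, adjusted p = 0.0247, limma), a call lost under 8 of 19 alternatives. In that comparison 8 of 9 were positive, against 44.7% of all tested genes. The part of endothelial content in the Col5a3 values was not tested. Per unit of Cdh5, an endothelial cadherin, Col4a1 was 1.13 ± 0.0374 (SD, n = 2), 1.13 ± 0.0328 (SD, n = 3) and 1.08 ± 0.129 (SD, n = 3) in the 3 groups, while Col5a3 was 0.0363 and 0.0421, 0.0482 to 0.0553 and 0.0726 to 0.0795. Per unit of Pecam1, another endothelial marker, Col4a1 had group means of 4.01, 4.27 and 4.40 in the same order. Over the 8 libraries its coefficient of variation was 6.92% per unit of Cdh5 and 15.7% per unit of Pecam1, where Col4a1 alone varied by 15.7%. Adipocyte markers, another cell type in which Col5a3 is known to be expressed, were high in EAM knockout 1, with Adipoq at 10.6 FPKM there and at 1.96 and 0.0763 FPKM in EAM knockout 2 and 3. In EAM knockout 3 Plin1 and Retn were listed at 0 and Cidec was at 0.0187 FPKM, while Col5a3 was at 8.49 FPKM. In EAM wild type 2 Adipoq was at 4.20 FPKM and Col5a3 at 6.47 FPKM. Summed levels of the 7 adipocyte markers, largely Fabp4, were 101 to 112 FPKM in control, 114 to 154 in EAM wild type and 78.9 to 183 in EAM knockout, and no tested marker among 6 passed. The part of adipocyte content in the Col5a3 values was not tested.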

How the data were processed

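Values were FPKM per gene as deposited by the authors. Tools named in the submitters' processing notes, without roles, are StringTie 1.3.3b, HISAT2 2.0.4 and edgeR, and the build is mm10. Neither the annotation release nor the strandedness of counting is given in the sources used here. Depth was inferred from the steps of 1 fragment, with GENCODE M21 exon lengths, in 453 to 594 genes per library. Such floors cover counting error only.

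A filter of FPKM 1 or more in 2 or more libraries kept 10393 genes and removed 24352. The test was limma 3.58.1 (R 4.3.3) on values of log2(FPKM + 1), with all 8 libraries and 3 groups in one fit, a mean-variance trend and 5 residual degrees of freedom. The pseudocount of 1 understates changes of low genes. P-values were adjusted over all tested genes by the Benjamini-Hochberg method. The labels do not tie libraries to animals. Earlier library names carry numbers that may be those of animals. They are 1, 3 and 4 for EAM wild type, 2, 5 and 6 for EAM knockout, and 1 and 2 for control. The spread behind each p-value is that between libraries. Whether it is technical or between animals is not stated. The procedure was also run on simulated data with independent noise per gene. That noise holds no shifts shared across a library, so the run does not bear on them.

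Members, classes, gene lists and tests were chosen with earlier results of these data known. The naming rule was every tested collagen gene, with values per library for those with a mean of at least 5 FPKM or past the threshold, and from the synthesis, receptor and TGF-beta lists the genes past the threshold or else the 3 with the largest difference. A gene that the rule names is not reported here. Serpinh1 and Tgfb1 were added after their values were seen. Alternatives covered pseudocount, filter, scaling, trend, samples in the fit, single libraries and a replicate block. Leaving out the 3 libraries highest in atrial markers, and an atrial covariate, were added after seeing the data.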

Additional observations from a re-analysis of the deposited data

How the results depend on the processing

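With 2 control libraries and 3 per EAM group, counts of called collagen genes moved with the setting, and where they moved the cause was not tested. Higher in EAM wild type than control were 2 genes, 1 with no filter, median-ratio scaling, quantile normalization, only the 2 groups compared or the atrial covariate, 0 without the 3 libraries highest in atrial markers, and 0 to 3 when 1 library was left out (0 without either control). Lower in EAM knockout than EAM wild type were 3 genes, 1 with either scaling, 7 with the atrial covariate, 0 without the 3 libraries, and 0 to 5 when 1 library was left out (0 without EAM wild type 1, 1 without EAM knockout 2, 5 without EAM wild type 3). Higher there was no gene, but 1 with a pseudocount of 5 or either scaling. Higher in EAM knockout than control was 1 gene, and 0 without the 3 libraries. Lower was 1 gene, 0 with no filter, the atrial covariate or without the 3 libraries, and 0 to 1 when 1 library was left out. The median log2 difference of the members between genotypes was -0.55 without the 3 libraries. Whether the replicate numbers of the labels pair libraries could not be told. Of 7 same-numbered pairs 2 had deviations from the group mean correlated above 0.1 (range -0.20 to 0.36). With 2 controls, the control deviations mirror each other, so pairs with a control cannot show pairing. Between the EAM groups, numbers 2 (0.355) and 3 (0.311) gave the highest correlations and number 1 gave -0.0896. The highest between different numbers was 0.256. A fit with the number as a replicate block called 7 collagen genes lower in EAM knockout than EAM wild type and left the other counts as they were, with Col1a1 in place of Col5a3 among the 2 genes higher in EAM wild type than control.

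Signs turned for genes far from the threshold. In EAM wild type against control Col16a1 became -0.044 with median-ratio scaling, -0.078 with quantile normalization, -0.053 without the 3 libraries and -0.19 with the covariate. Col20a1 became 0.048 with the block and 0.035 without the 3 libraries, and Col8a1 0.0072 without them. With single libraries left out the ranges there were -0.053 to 0.16 for Col16a1, -0.30 to 0.035 for Col20a1, -0.034 to 0.44 for Col6a3 and -0.17 to 0.0072 for Col8a1. Between genotypes Col4a1 became 0.051, 0.030 and 0.034 with median-ratio scaling, quantile normalization and without the 3 libraries, Col4a2 became 0.052, 0.020 and 0.014, and Col4a4 became 0.027 with quantile normalization. Ranges with single libraries left out were -0.16 to 0.00063 for Col4a1 and -0.32 to 0.015 for Col20a1. In EAM knockout against control Col1a1 became -0.35 without the 3 libraries and -0.32 with the covariate, and ranged from -0.13 to 0.20 with single libraries left out.

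Over all tested genes, calls were 141 higher and 14 lower in EAM wild type than control. Between genotypes 30 were higher and 291 lower in the knockout, and against control 59 were higher and 83 lower there. With single libraries left out they ranged over 13 to 115 and 2 to 15, 20 to 49 and 72 to 211, and 11 to 93 and 21 to 100.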
